A study of Mus musculus with 6 samples.

Results

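The 10 receptor genes examined here encode chains by which blood cells read growth factors and cytokines: Csf1r, Csf2ra, Csf2rb, Csf2rb2, Csf3r, Il3ra, Il6ra, Il7r, Epor and Ifngr1. They were chosen by name from the 55421 genes of the deposited count table, and all 10 were found there and passed the filter on low counts, which left 18375 genes. RNA sequencing had been done on leukemia cells from mouse bone marrow, with 3 libraries labelled AE9a-Ddit4+/+ (wild type) and 3 labelled AE9a-Ddit4-/- (knockout). AE9a is a shortened AML1-ETO fusion protein that causes acute myeloid leukemia in mice. It was brought by a retrovirus that also carries GFP into c-Kit+ stem and progenitor cells of young adult C57BL/6 donors with intact Ddit4 or with Ddit4 knocked out, and the cells were grown in irradiated C57BL/6 recipients. Both groups thus carry the same oncogene, and the donor genotype is the labelled difference. Growth of the leukemia cells in IMDM with serum is also noted in the labels. By the account of the study, each group had as many transplanted mice as libraries. Whether these mice carried separately started leukemias is not stated. In its primary transplants, however, the study reported fewer leukemias among knockout recipients than there are knockout libraries here. By that count the knockout libraries cannot all be separate primary leukemias of that experiment. The p values thus measure the spread between these libraries, which may be smaller than that between independent leukemias.

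Most of these chains belong to the class I cytokine receptors, which have no kinase of their own. When a ligand joins the chains, JAK kinases bound to their tails phosphorylate STAT factors, which enter the nucleus and switch on survival, growth and lineage genes as well as their own brakes of the CIS and SOCS family. Ligand-binding alpha chains often share a signaling chain: the receptors of GM-CSF, IL-3 and IL-5 share the common beta chain encoded by Csf2rb, IL-7 signals through Il7r with the common gamma chain Il2rg, and IL-6 through Il6ra with gp130 (Il6st). Csf1r differs in being a receptor tyrosine kinase, and Ifngr1 is a class II receptor.

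Levels are given as CPM, the count of a gene over the TMM-corrected sum of its library, times 1000000. Library sums ran from 62141558 to 72717681 counts. Ddit4, a stress-induced brake of mTOR signaling, had 228, 161 and 342 CPM in wild-type libraries 1, 2 and 3 and 84.9, 77.7 and 85.9 CPM in knockout libraries 1, 2 and 3 (edgeR log2 fold change -1.56, SE 0.28, adjusted p 0.00635), so its RNA was lower but still present where the labels say knockout. Which part of the gene the allele lacks was not known, so these counts do not test for functional RNA. For the protein, the study reported by western blot that DDIT4 was wholly absent from AE9a-Ddit4-/- leukemia cells. The study describes its AE9a model as c-Kit positive, lineage negative and lacking markers of myeloid or lymphoid maturation. Kit had 14.6 to 31.6 CPM in wild-type and 304 to 509 CPM in knockout libraries, and Cd34, a progenitor marker, had 2.26 to 9.83 and 493 to 558 CPM. Lineage markers were present, such as Ngp (2629 to 4153 and 363 to 1599 CPM), Hbb-bs (2529 to 4056 and 38.5 to 220) and Cd79b (0.603 to 3.06 and 32.2 to 67.7). The share of leukemia cells in each library was not tested. Runx1t1, part of which the transgene holds, had 6.47 to 18.1 and 69.9 to 206 CPM. Sex-linked genes differed as well, with the Y-linked gene Ddx3y at 4 or 5 counts in each wild-type library and 88.2 to 125 CPM in the others, and Xist at 566 to 1032 against 20.3 to 129 CPM. Knockout libraries thus held RNA of both Ddx3y and Xist. The study names female recipients for its AE9a model, and the share of recipient cells in these libraries was not tested. Mitochondrial genes took 5.03 to 7.91% of the counts in wild-type and 11.3 to 16.5% in knockout libraries. Genotype cannot be told apart from sex or from any other difference that separates the 3 leukemia libraries of one group from those of the other.

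Of the 10 genes, 8 had a promoter in RefSeq (GRCm38.p6), Csf1r and Csf2rb being the exceptions, and each was searched on both strands for short motifs of blood cell transcription factors. Positions count from the RefSeq transcription start, and capitals mark the motif as it reads on the strand of the gene. The 4 genes whose levels passed the test in the comparison below are shown. Epor is printed as the 200 bases before its start because it holds both a RUNX match (TGTGGT, on the other strand, first base at -166) and a GATA match (AGATAA, on the other strand, first base at -54).
Epor, chr9:21963577-21963776, minus strand: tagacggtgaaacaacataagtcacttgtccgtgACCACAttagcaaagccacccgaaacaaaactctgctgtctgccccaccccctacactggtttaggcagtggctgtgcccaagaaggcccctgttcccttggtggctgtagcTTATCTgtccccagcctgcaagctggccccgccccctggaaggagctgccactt
Csf3r is shown for its ETS and PU.1 match (GAGGAA, first base at -86).
Csf3r, chr4:126024561-126024590, plus strand: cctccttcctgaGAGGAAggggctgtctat
Il3ra and Il7r are shown because their C/EBP matches (TTNNGCAA, both on the other strand, first bases at -134 and -174) have the same 8 letters, and Il7r also for a RUNX match whose first base lies at 3.
Il3ra, chr14:14346350-14346379, plus strand: atctcaggaagTTGCTCAAtctcgggacca
Il7r, chr15:9530032-9530061, minus strand: agtctaccaccTTGCTCAAaagtaagcagt
Il7r, chr15:9529856-9529885, minus strand: tagttccctgtcTGTGGTttagcaggcaca
The stretch searched was longer than the 200 bases printed for Epor, with matches from -245 (Il6ra) to 29 (Csf2rb2). The RUNX letters occurred in 2 of the 8 promoters and in 16.8% of all 32851 promoters searched, and the GATA letters in 2 (Il6ra and Epor) and 11.2%. The ETS letters occurred in 4 (Csf2ra, Csf2rb2, Csf3r and Il6ra) and 28.3%, and the C/EBP letters in 2 and 10.8%. These are matches of letters, and binding was not measured.

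Among the receptors, RNA of Csf3r, Il3ra and Il7r was higher and RNA of Epor was lower in knockout than in wild-type libraries, and 6 genes did not pass the test. Csf3r (ENSMUSG00000028859, chr4:126024550-126044440, plus strand, GRCm38) encodes the receptor of G-CSF, the main growth factor of neutrophils. It had 31.7, 57.8 and 30.6 CPM in wild-type libraries 1, 2 and 3 and 140, 154 and 181 CPM in knockout libraries 1, 2 and 3. The lowest knockout library stood well above the highest wild-type library, with group means of 40.04 ± 15.4 and 158 ± 20.8 CPM (SD, n = 3 each). Csf3r thus rose 3.96-fold (edgeR log2 fold change 1.98, SE 0.29, adjusted p 0.00297). The summed level of neutrophil markers moved the other way, with 7761 to 12973 CPM in wild-type and 1969 to 5605 CPM in knockout libraries. The part of neutrophils in the level of Csf3r was not tested.

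Il3ra (ENSMUSG00000068758, chr14:14346275-14356011, plus strand) encodes the IL-3-binding alpha chain, known as CD123. It had 8.91, 7.81 and 5.40 CPM in wild-type and 38.4, 35.0 and 26.6 CPM in knockout libraries. The groups were far apart compared with the spread inside each of them, and Il3ra rose 4.52-fold (edgeR log2 fold change 2.18, SE 0.29, adjusted p 0.00199). Basophils and mast cells respond to IL-3, and the 14 mast cell, basophil and eosinophil markers summed to 266 to 299 CPM in wild-type and 1208 to 1867 CPM in knockout libraries. In knockout libraries most of that sum came from Cpa3 (480 to 1040 CPM) and Gata2 (501 to 613 CPM), which had 1.36 to 4.02 and 123 to 178 CPM in wild-type libraries. Of the 12 markers tested, 6 were higher, where 19.4% of all genes tested were, 0 were lower and 6 did not pass the test. Among those 6, Fcer1a and Ms4a2 had lower means in knockout libraries (37.5 against 24.6 and 7.24 against 3.18 CPM). Tpsb2 and Epx had 0 counts in 3 and 1 of the wild-type and in 2 and 2 of the knockout libraries. The part of such cells in the level of Il3ra was not tested.

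Il7r (ENSMUSG00000003882, chr15:9505788-9530176, minus strand) encodes the IL-7 receptor alpha chain, which lymphoid progenitors and T cells depend on. It was nearly silent in wild-type libraries, with 24, 32 and 3 counts or 0.380, 0.472 and 0.0464 CPM. The knockout libraries had 828, 64 and 747 counts or 13.3, 1.05 and 10.2 CPM, so that library 2 lay much closer to the wild-type libraries than the other two did. The fitted rise was 27.1-fold (edgeR log2 fold change 4.76, SE 1.13, adjusted p 0.0179). The call was lost without wild-type library 1 (adjusted p 0.0555) and without knockout library 1 (adjusted p 0.0568). Lymphoid markers moved with Il7r. The 18 T, NK and B cell markers summed to 11.2 to 50.4 CPM in wild-type and 146 to 234 CPM in knockout libraries, and among these sums knockout library 2 was the lowest of its group, as it was for Il7r. That library was also the lowest of its group for the erythroid, monocyte and neutrophil sums, so its low rank is not particular to lymphoid markers. Of the 15 lymphoid markers tested, 14 were higher in knockout libraries, where 19.4% of all genes tested were. Trac, Klrb1c, Ms4a1 and Cd3e (4, 7 and 3 wild-type counts) entered the test through the knockout libraries alone. Ncr1, Rag1 and Dntt were not tested. The filter thus set this share in part, and the share is not read as a test. Of all 18, 5 had 0 counts in each wild-type library (Trac, Klrb1c, Ncr1, Ms4a1, Rag1), and Rag1 also had 0 counts in each knockout library. The part of lymphoid cells in the level of Il7r was not tested, and in bulk samples a change in the number of cells of a type cannot be told apart from a change in RNA per cell.

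**Figure D1:**
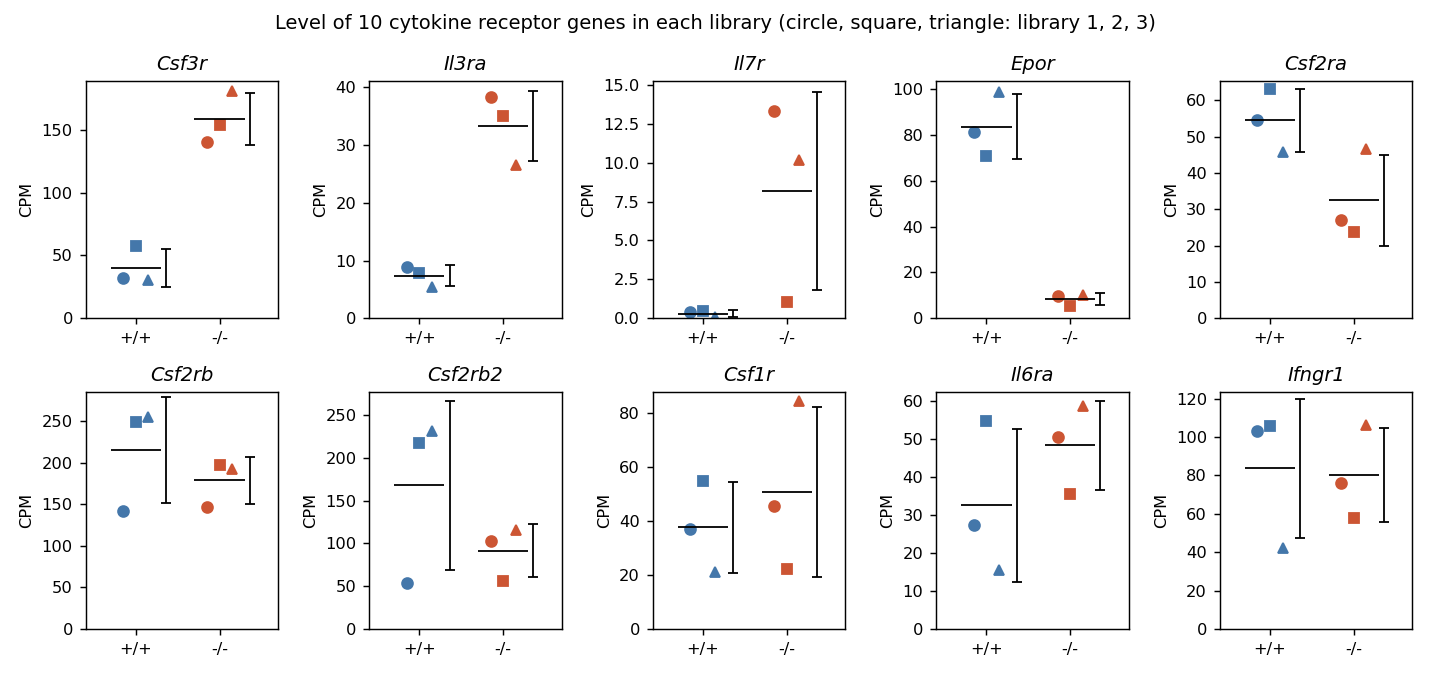
Level of each of the 10 receptor genes (y axes, CPM, linear from 0) in the AE9a-Ddit4+/+ (+/+, blue) and AE9a-Ddit4-/- (-/-, orange) libraries. Circles, squares and triangles are libraries 1, 2 and 3, horizontal lines the group means and bars 1 SD to either side. The groups do not overlap for Csf3r, Il3ra, Il7r and Epor, and for Il7r the knockout square at 1.05 CPM lies just above the wild-type libraries.

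Epor (ENSMUSG00000006235, chr9:21958897-21963506, minus strand) encodes the erythropoietin receptor, which keeps erythroid progenitors alive and signals through JAK2 and STAT5. It had 81.5, 70.9 and 99.0 CPM in wild-type and 9.62, 5.40 and 9.98 CPM in knockout libraries. Means were 83.8 ± 14.2 and 8.33 ± 2.55 CPM (SD, n = 3 each), a level 10.0-fold lower in knockout cells (edgeR log2 fold change -3.33, SE 0.31, adjusted p 0.000580). Erythroid markers moved in the same direction. Their summed level was 8189 to 16897 CPM in wild-type and 651 to 1193 CPM in knockout libraries. Of the 14 markers tested (Ahsp was not analysed here), 11 were lower, where 10.7% of all genes tested were. Among them were the globin genes Hbb-bs (2529 to 4056 against 38.5 to 220 CPM) and Hba-a1 (839 to 3644 against 30.7 to 165 CPM). The erythroid factor Gata1 (111 to 157 against 120 to 147 CPM), the transferrin receptor Tfrc (72.9 to 146 against 89.4 to 132 CPM) and the membrane anion exchanger Slc4a1 (11.3 to 27.5 against 3.95 to 38.1 CPM) did not pass the test. Within the wild-type group, library 2 was the lowest both for Epor and for the erythroid sum, and knockout library 2 was the lowest of its group for both. Libraries 1 and 3, however, stood in opposite order for Epor and for the erythroid sum in both groups. Knockout library 2 was also the lowest for the lymphoid, monocyte and neutrophil sums. The part of erythroid cells in the level of Epor was not tested.

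The GM-CSF-binding chain and both beta chains had lower mean levels in knockout cells, but none passed the test. Csf2ra (ENSMUSG00000059326, chr19:61223957-61228429, minus strand), which encodes the GM-CSF-binding alpha chain, had 54.5, 63.1 and 45.7 CPM in wild-type and 27.0, 23.6 and 46.7 CPM in knockout libraries. Only knockout library 3 reached the range of the wild-type libraries (edgeR log2 fold change -0.75, SE 0.30, adjusted p 0.0983), and without that library the gene passed the threshold (log2 fold change -1.15, adjusted p 0.0228). Csf2rb (ENSMUSG00000071713, chr15:78325752-78353847, plus strand), the common beta chain, had 142, 249 and 255 CPM in wild-type and 147, 198 and 193 CPM in knockout libraries. Library 1 was the lowest of both groups, and the ranges overlapped (edgeR log2 fold change -0.27, SE 0.26, adjusted p 0.486).

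Csf2rb2 (ENSMUSG00000071714, chr15:78282507-78305721, minus strand) lies next to Csf2rb and encodes the second mouse beta chain, which pairs with Il3ra alone. It had 53.8, 218 and 232 CPM in wild-type and 103, 56.6 and 115 CPM in knockout libraries. wild-type library 1 was below all knockout libraries while the other two were above them (edgeR log2 fold change -0.88, SE 0.53, adjusted p 0.252), and without that library the gene passed the threshold (log2 fold change -1.30, adjusted p 0.0341). The longest annotated transcripts of both beta chain genes have 18.4% of the 50-base windows of Csf2rb and 19.0% of those of Csf2rb2 in common, and 3.47% and 3.59% of the 150-base windows. How the counting treated reads that match both was not given in the sources used here, so the split between these genes is uncertain.

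Csf1r, Il6ra and Ifngr1 overlapped between the groups. Csf1r (ENSMUSG00000024621, chr18:61100598-61132149, plus strand), the receptor of the macrophage growth factor M-CSF, had 37.1, 55.0 and 20.95 CPM in wild-type and 45.7, 22.2 and 84.8 CPM in knockout libraries (edgeR log2 fold change 0.43, SE 0.52, adjusted p 0.565). The highest and almost the lowest value both came from knockout cells, and without library 3 of that genotype the direction turned (log2 fold change -0.20). The end of Csf1r overlaps Hmgxb3 on the opposite strand by 873 bases, so that reads there can be told apart only where strand was used in counting, which the sources used here do not state. Il6ra (ENSMUSG00000027947, chr3:89864059-89913196, minus strand), the IL-6-binding chain, had 27.4, 54.8 and 15.4 CPM in wild-type and 50.6, 35.6 and 58.8 CPM in knockout libraries (edgeR log2 fold change 0.57, SE 0.45, adjusted p 0.374). Its wild-type library 2 was within the knockout range, and without it the gene passed the threshold (log2 fold change 1.17, adjusted p 0.0437). Ifngr1 (ENSMUSG00000020009, chr10:19591949-19610229, plus strand), the ligand-binding chain of the interferon gamma receptor, had 103, 106 and 42.0 CPM in wild-type and 76.2, 57.9 and 106 CPM in knockout libraries (edgeR log2 fold change -0.06, SE 0.39, adjusted p 0.919).

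For Csf1r, Csf2ra, Il6ra and Ifngr1 the libraries stood in the same order inside each genotype: 2, 1, 3 from high to low in wild-type and 3, 1, 2 in knockout libraries. This is also the order of the summed monocyte and macrophage markers, which had 1496, 1640 and 911 CPM in wild-type and 1109, 531 and 1750 CPM in knockout libraries 1, 2 and 3. The order was looked for after the values had been seen, and 3.65% of all genes tested had it. Of the 15 monocyte markers, Ms4a7 was higher in knockout libraries, where 19.4% of all genes tested were, and 14 did not pass the test. Lyz2, the most abundant, had 463 to 797 and 203 to 737 CPM, and F13a1 had 75.9 to 189 and 113 to 202 CPM. The part of monocytes in the levels of the 4 receptors was not tested.

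In all, 4 of the 10 receptor genes passed the threshold, where 30.1% of all genes tested did so. By direction, 3 rose against a background of 19.4%, and 1 fell against a background of 10.7%. The groups of 3 libraries did not overlap for 4 of the 10, while 50.1% of all genes tested had no overlap. These shares are near the background and are not read as a result about the set. The median log2 fold change of the receptors was 0.19 beside 0.04 over all genes tested. Csf3r, Il3ra and Epor passed the threshold in each of 16 alternative analyses, with log2 fold changes of 1.82 to 2.35, 1.99 to 2.33 and -3.54 to -3.14. Il7r could be tested in 15 of them, and passed in 11.

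**Figure D2:**
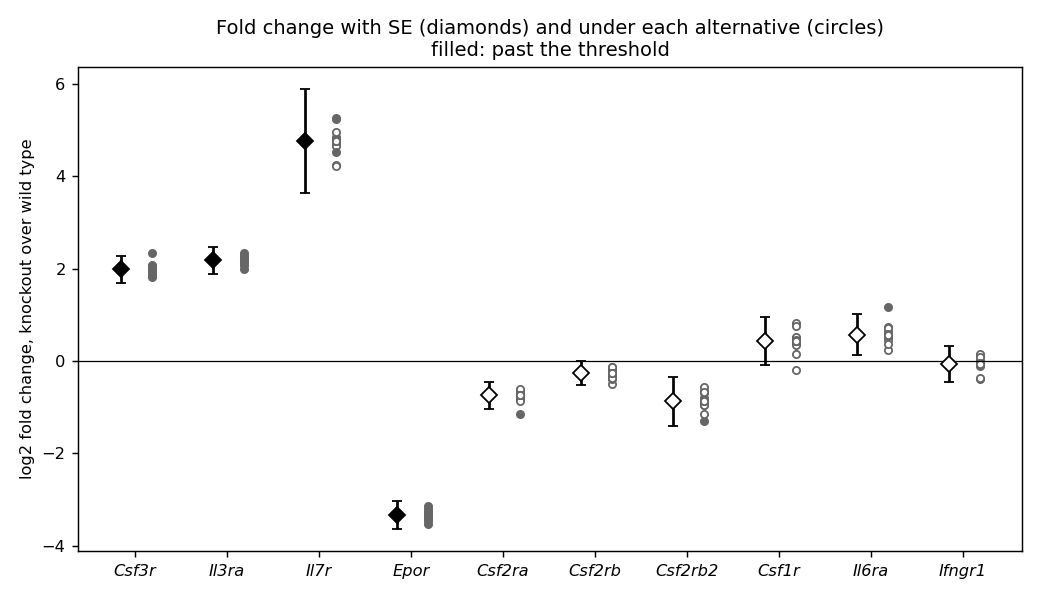
Log2 fold change of each receptor gene, knockout over wild-type (y axis), as diamonds with 1 SE to either side, with circles beside them for the alternative analyses. Filled symbols passed the threshold. Csf3r, Il3ra and Epor are filled throughout, Il7r has open circles between 4.22 and 4.96, and Csf1r and Ifngr1 have circles on both sides of 0.

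Divided by the length of the exons, which makes levels comparable between genes, the order of the receptors differed between the genotypes. In wild-type cells Epor was the highest with 42.1 ± 7.13 CPM per kb of exon (SD, n = 3 for this and each following value), and Csf2rb2 (35.4 ± 20.9), Csf2rb (29.6 ± 8.74) and Ifngr1 (29.4 ± 12.7) followed. Epor, Csf2rb2, Csf2rb and Ifngr1 were not separated from their neighbours by more than 1 SD to either side, and neither was Ifngr1 from Csf2ra (19.0 ± 3.03). Csf3r (11.1 ± 4.27) was below Csf2ra with no overlap of these intervals, and Csf1r (6.52 ± 2.95), Il6ra (3.77 ± 2.33) and Il3ra (2.49 ± 0.605) came next, each overlapping its neighbour. Il7r was the lowest, at 0.0642 ± 0.0480 CPM per kb. In knockout cells Csf3r was the highest receptor gene with 43.9 ± 5.78 CPM per kb, with Ifngr1 (28.1 ± 8.60) and Csf2rb (24.6 ± 3.88) below it by more than these intervals. With the length of the longest transcript the intervals of Csf3r (45.5 ± 5.99), Ifngr1 (37.9 ± 11.6) and Csf2rb (36.5 ± 5.76) overlapped. After Csf2rb2 (19.3 ± 6.52) came Csf2ra (11.3 ± 4.33) and Il3ra (11.2 ± 2.05), nearly equal. Csf1r (8.82 ± 5.47), Il6ra (5.59 ± 1.36), Epor (4.19 ± 1.28) and Il7r (1.75 ± 1.36) ended the order, and from Ifngr1 down each interval overlapped the next. Epor thus stood in the first place in wild-type and in the ninth in knockout cells, and Csf3r in the sixth and in the first.

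Because the chains act in complexes, levels were also set against each other within a library, as the log2 ratio of the CPM of a chain to that of its partner, with a prior of 0.25 CPM added to both. For Il3ra to Csf2rb the log2 ratios were -3.96, -4.95 and -5.50 in wild-type and -1.92, -2.49 and -2.84 in knockout libraries. The groups did not overlap and differed by 2.38, but an exact two-sided permutation test of 3 against 3 libraries cannot give a p below 0.1, which is what it gave (0.3 after adjustment over the 6 pairs). Il6ra to Il6st also had no overlap, with 1.05, 1.82 and 1.37 in wild-type and 1.0, 0.01 and 0.56 in knockout libraries, a difference of -0.89 (exact permutation p 0.1, adjusted 0.3). The ratios of Csf2ra to Csf2rb (difference -0.57, exact permutation p 0.3), Csf2rb2 to Csf2rb (-0.44, p 0.5), Il7r to Il2rg (1.53, p 0.3) and Ifngr1 to Ifngr2 (-0.17, p 0.7) overlapped between the groups. The value for Il7r, whose wild-type counts are low, depended on the prior: the difference was 0.50 with a prior of 1 CPM and 2.74 with none, a setting added after seeing the data. A ratio shows that the 2 chains differed unequally between genotypes and says nothing of which of them did.

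**Figure D3:**
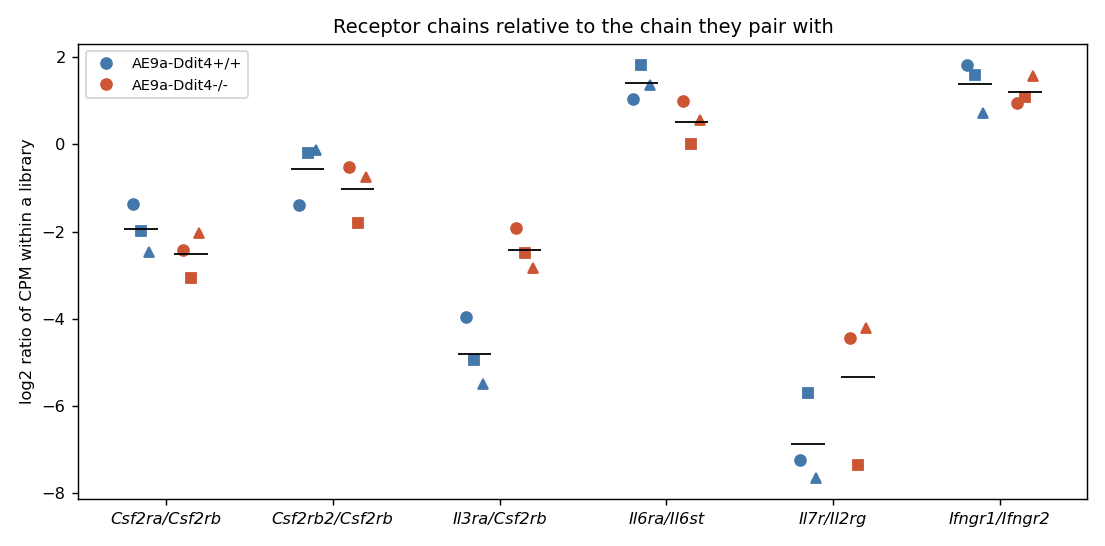
Log2 ratio of the CPM of a receptor chain to that of its partner chain within each library (y axis, with 0.25 CPM added to both), for 6 pairs. Circles, squares and triangles are libraries 1, 2 and 3, blue for wild-type and orange for knockout, and lines are group means. CPM are not per length here, so only libraries of the same pair can be compared. The blue and orange points are apart for Il3ra/Csf2rb, with orange higher, and for Il6ra/Il6st, with blue higher.

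Of the 5 partner chains of these receptors, 3 rose, where 19.4% of all genes tested did, and 2 did not pass the test. Of the 3, Il5ra entered the test through the knockout libraries alone, so it could not have been called lower. Il6st, the gp130 chain used by IL-6 and its relatives, had 13.1, 15.3 and 5.82 CPM in wild-type and 25.2, 35.3 and 39.8 CPM in knockout libraries (edgeR log2 fold change 1.55, SE 0.39, adjusted p 0.0228). Without wild-type library 1 or knockout library 2 or 3 Il6st did not pass (adjusted p 0.0538, 0.0625 and 0.0733 in edgeR). Il2rg, the common gamma chain on the X chromosome, had 94.4, 37.3 and 59.5 CPM in wild-type and 293, 212 and 194 CPM in knockout libraries (edgeR log2 fold change 1.87, SE 0.36, adjusted p 0.00776). Il5ra, the IL-5-binding chain of eosinophils, had 0 counts in all 3 wild-type libraries and 40, 42 and 85 counts (0.642, 0.691 and 1.16 CPM) in knockout libraries. Measured against 12 counts per library, the limit used for a count of 0 here, it was at least 4.51-fold higher (edgeR adjusted p 0.00364). Ifngr2, the signaling chain of the interferon gamma receptor (25.4 to 35.0 against 27.2 to 39.0 CPM), and Crlf2, which joins Il7r in the TSLP receptor (43.9 to 56.5 against 50.1 to 74.5 CPM), had edgeR adjusted p values of 0.578 and 0.625.

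The ligands themselves were scarce in these libraries. Of 11 ligand genes 5 could be tested, and 3 of them rose (background 19.4%): Csf1, Il6 and Ifng. Ifng entered the test through the knockout libraries, and the ligands left untested had low counts. The filter thus set this share in part, and the share is not read as a test. Csf1, the ligand of Csf1r, had 4.65, 2.59 and 3.39 CPM in wild-type and 7.63, 7.36 and 10.2 CPM in knockout libraries (edgeR log2 fold change 1.24, SE 0.37, adjusted p 0.0388). Il6 had 0.966, 1.58 and 1.08 against 6.02, 5.78 and 1.88 CPM (edgeR log2 fold change 1.91, SE 0.55, adjusted p 0.0352), and the third knockout library was close to the wild-type range. Ifng, a product of T and NK cells, had 0, 29 and 4 counts in wild-type and 344, 152 and 563 counts in knockout libraries (edgeR log2 fold change 4.98, SE 1.24, adjusted p 0.0211). These 3 calls did not hold when single libraries were left out: 0 remained past the threshold without wild-type library 3 or knockout library 1, and 1 without knockout library 2 or 3. The log2 fold changes stayed above 0 with any library left out, at 1.04 to 1.49 for Csf1, 1.64 to 2.24 for Il6 and 4.40 to 7.30 for Ifng. Csf3, the ligand of Csf3r, had 0.285 to 1.28 and 0.503 to 2.28 CPM, and Epo, that of Epor, 0.958 to 6.62 and 0.965 to 1.20 CPM (edgeR adjusted p 0.554 and 0.108). Epo was lower past the threshold by DESeq2 (adjusted p 0.0419) and by edgeR without wild-type library 2 (adjusted p 0.0248). Il34 had 32, 4 and 16 counts in wild-type and 0, 0 and 9 in knockout libraries, Tslp 4, 20 and 0 against 4, 16 and 0, and Csf2 none in wild-type against 13, 0 and 12. Il5 and Il7 stayed at or below 12 counts in each library, and Il3 had 0 counts in all 6.

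Other cytokine receptors of blood cells were read from a wider list. Of its 32 genes, all tested, 18 rose (56.25%, beside 19.4% of all genes tested) and 14 did not pass the test (median log2 fold change 1.42, beside 0.04). By edgeR 0 fell, both after adjustment and at an unadjusted p below 0.05, and by DESeq2 0 fell and 20 rose. The count of 18 went down to 11 without wild-type library 3 or knockout library 3, and 1 gene fell when wild-type library 2 was left out. Of those with the largest rises, Il2rb and Il2ra are given here. Il2rb, the IL-2 and IL-15 receptor beta chain of T and NK cells, had 0.776, 0.781 and 0.464 CPM in wild-type and 40.3, 16.7 and 35.2 CPM in knockout libraries (edgeR log2 fold change 5.51, SE 0.48, adjusted p 0.000495). Il2ra, the IL-2 receptor alpha chain, had 0, 9 and 0 against 60, 43 and 134 counts, at least 6.32-fold higher (edgeR adjusted p 0.0315). It entered the test through the knockout libraries alone. Il2rb and Il7r had their lowest knockout value in the same library, knockout library 2, which was also the lowest of its group for the lymphoid, erythroid, monocyte and neutrophil sums.

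Of 25 JAK kinases, STAT factors and their brakes, 8 rose (32%, beside 19.4% of all genes tested), 3 fell (12%, beside 10.7%) and 14 did not pass the test (median log2 fold change 0.29, beside 0.04). The 8 became 5 without wild-type library 1 or 3 or knockout library 1. The 3 that fell were Jak2, Cish and Socs2. Jak2, the kinase bound to Epor and to the common beta chain, had 256, 271 and 199 CPM in wild-type and 155, 130 and 117 CPM in knockout libraries (edgeR log2 fold change -0.85, SE 0.20, adjusted p 0.0168). Cish and Socs2 are STAT5 target genes and feedback brakes. Cish had 82.9, 30.2 and 99.0 against 20.5, 11.045 and 10.1 CPM (edgeR log2 fold change -2.35, SE 0.49, adjusted p 0.0108), and Socs2 had 33.6, 26.2 and 27.7 against 2.76, 1.51 and 5.06 CPM (edgeR log2 fold change -3.22, SE 0.46, adjusted p 0.00276). The largest rises were those of Socs5, Stat4 and Jak3. Socs5, another SOCS family gene, had 0.201 to 0.380 and 5.35 to 10.7 CPM (log2 fold change 4.83, edgeR adjusted p 0.000811). Stat4, which mediates IL-12 signals, had 1.95 to 4.54 and 52.5 to 90.8 CPM (log2 fold change 4.48, edgeR adjusted p 0.000553). Jak3, the kinase bound to the common gamma chain, had 11.9 to 25.0 and 266 to 298 CPM (log2 fold change 4.03, edgeR adjusted p 0.000352). Stat5a rose as well (means of 182 and 263 CPM, edgeR adjusted p 0.0373). So did Socs1 (3.13 and 12.6 CPM, edgeR adjusted p 0.00720) and Pim1 (300 and 647 CPM, edgeR adjusted p 0.00501). The activity of STAT5 was not tested.

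**Figure D4:**
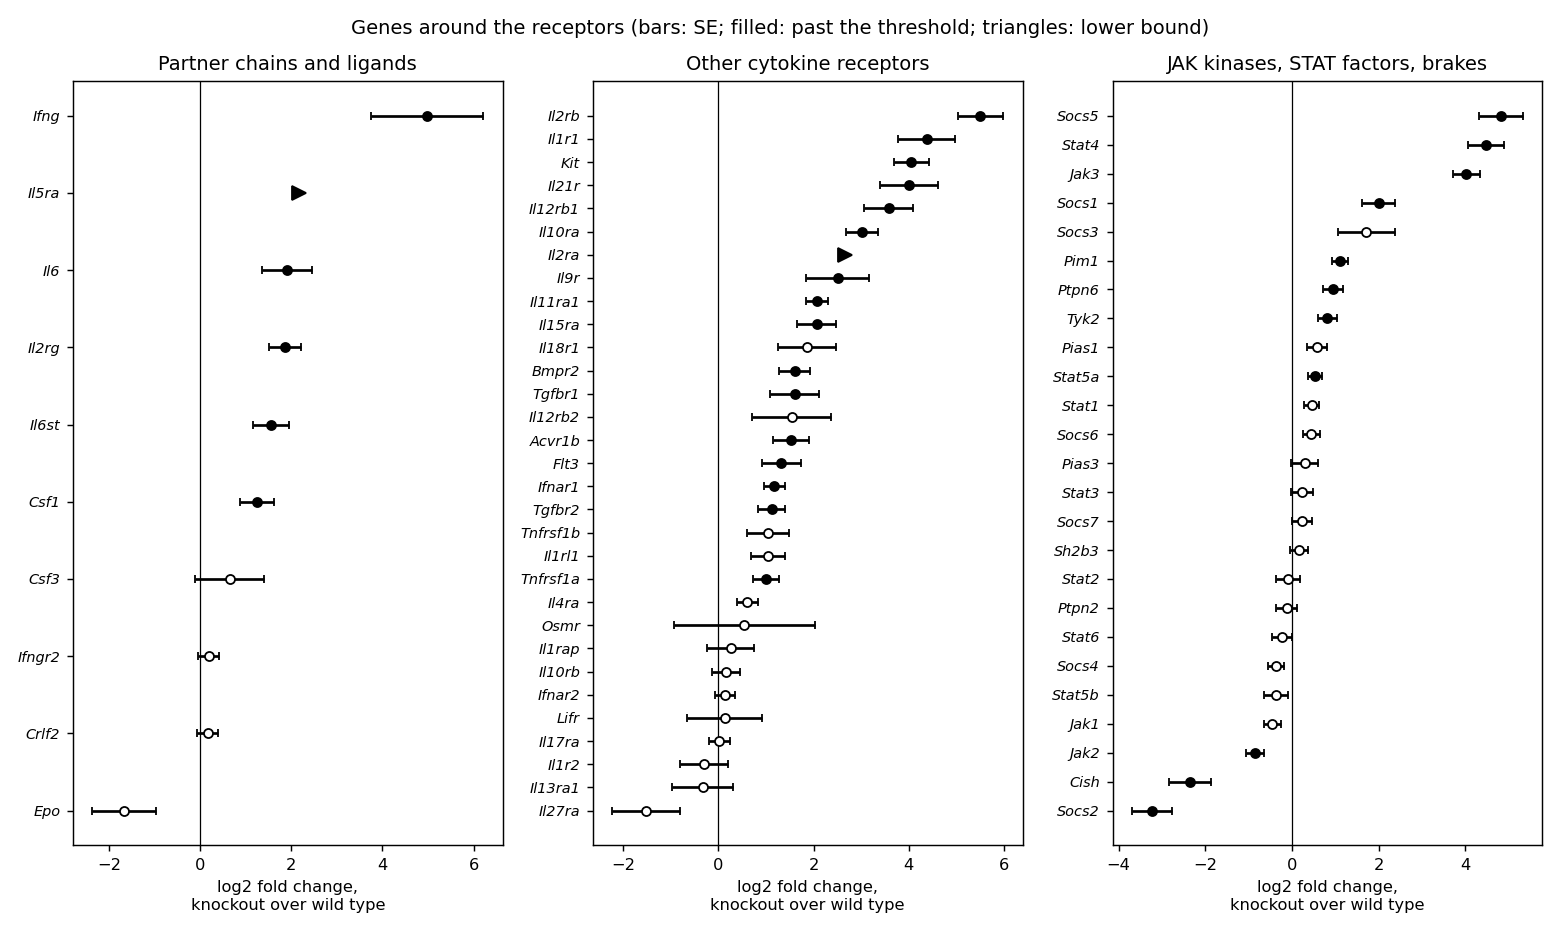
Log2 fold change, knockout over wild-type (x axes), of the tested partner chains and ligands, other cytokine receptors and the JAK-STAT genes. Circles carry 1 SE to either side, filled symbols passed the threshold, and triangles are lower bounds for genes at or under 12 counts in each wild-type library. In the middle panel the filled symbols all lie to the right of 0, and in the right panel 3 filled circles (Jak2, Cish, Socs2) lie to the left of 0.

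Lineage markers were read beside 4 receptors that are used to tell lineages apart. Epor and the erythroid sum were both high in the wild-type libraries, and Il7r and the lymphoid sum both high in the knockout libraries. For Csf1r the monocyte sums of the genotypes overlapped, with 911 to 1640 CPM in wild-type inside the 531 to 1750 CPM of knockout libraries. Csf3r went the other way: it was high where the neutrophil sum was low. Of 15 neutrophil markers 6 were lower, where 10.7% of all genes tested were, and 9 did not pass the test. Of the 2 most abundant, S100a9 was lower (1542 to 2591 against 258 to 1057 CPM). The other, Ngp (2629 to 4153 against 363 to 1599 CPM), did not pass the test (edgeR adjusted p 0.0528). No neutrophil marker was at 0 in any group. By edgeR 0 neutrophil markers were higher after adjustment, 1 at an unadjusted p below 0.05, and 1 by DESeq2. The 1 at an unadjusted p below 0.05 was Ctsg (31.6 to 135 against 138 to 301 CPM, edgeR adjusted p 0.0842). Megakaryocyte and platelet markers summed to 109 to 186 CPM in wild-type and 2175 to 3000 CPM in knockout libraries. Of the 11 tested, 8 were higher (beside 19.4% of all genes tested) and 1 was lower (beside 10.7%). The most abundant were Itga2b (88.0 to 146 against 1788 to 2330 CPM) and Itgb3 (1.80 to 4.66 against 158 to 227 CPM), and no gene of that list had 0 counts in every library of a group. The abundant lymphoid markers were Nkg7 (9.31 to 47.2 against 38.1 to 61.0 CPM), which did not pass the test, and Cd79b (0.603 to 3.06 against 32.2 to 67.7 CPM), which rose.

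**Figure D5:**
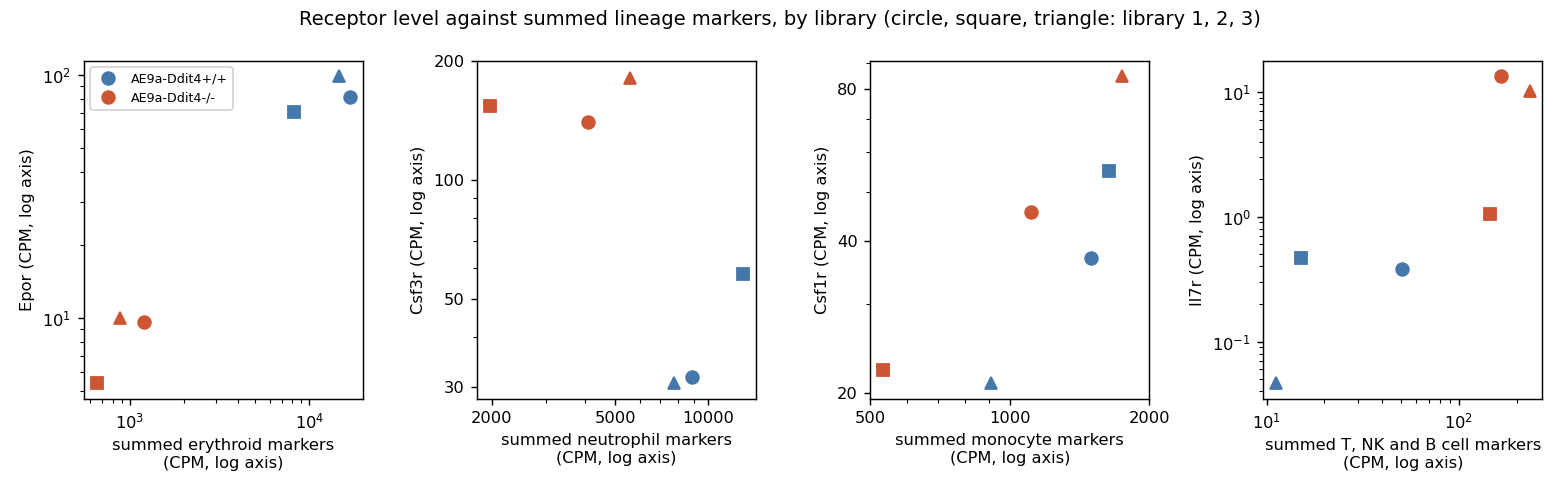
Level of Epor, Csf3r, Csf1r and Il7r (y axes, CPM, log scale) against the summed level of erythroid, neutrophil, monocyte, and T, NK and B cell markers (x axes, CPM, log scale) in each library, blue for wild-type and orange for knockout, with circles, squares and triangles for libraries 1, 2 and 3. Blue points are at the upper right for Epor and at the lower right for Csf3r, and orange points are at the upper right for Il7r.

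Position on the chromosome was read as well, since whole chromosomes differed between the groups. Genes whose mean log2 CPM exceeded 4 had a median log2 fold change of -0.17, and the 344 such genes of chromosome 15 lay 0.56 above it. Csf2rb, Csf2rb2 and Il7r lie on chromosome 15, as does Il2rb. Relative to the chromosome, the log2 fold changes of Csf2rb (-0.27) and Csf2rb2 (-0.88) were thus further from 0 and that of Il7r (4.76) nearer to it than the values show. Il7r itself, with means of 0.299 and 8.17 CPM, lay below the limit on level used for these medians. The chromosomes of Csf3r, Il3ra and Epor (4, 14 and 9) were shifted by -0.15, 0.02 and -0.08. A median of a chromosome does not show a local change, and copy number was not tested.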

How the data were processed

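The authors deposited 1 table of raw counts per gene for the 6 libraries. They were not normalized, and the submitters' processing notes name the builds GRCm38 and mm10. The aligner, the counting tool and the use of strand are not given in the sources used here. The labels name an mRNA kit and the methods a directional kit for rRNA-depleted RNA, so the selection of transcripts is unresolved. Small counts that divide by 4 were overrepresented (4, 8 and 12 occurred 1.41 to 1.62 times as often as 2, 6 and 10, by library). Limits for a count of 0 were therefore set at 12 counts per library (0.163 to 0.198 CPM) and cover counting error only.

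Groups and replicate numbers came from the sample titles. The 10 receptors and all gene lists were chosen with earlier results of these data known. Genotypes were compared by edgeR 4.0.16 under R 4.3.3, using its quasi-likelihood F-test (filterByExpr, TMM factors of 0.921 to 1.05, robust estimation, genotype as the only term), with Benjamini-Hochberg adjustment over 18375 genes and a threshold of 0.05. The filter asks for counts in only as many libraries as a single group holds, so a gene could enter the test through that group alone. This can raise the share of tested list members called higher, and the background share holds such genes too. SE is the absolute log2 fold change over the square root of F. DESeq2 1.42.0 and other settings served as alternatives, and the method was tested on simulated data. Positions and exon lengths came from GENCODE M21 (GRCm38), which held 99.5% of the identifiers. The genes named are all receptors and partner chains, ligands above 12 counts in a library, of the other receptors and JAK-STAT genes the 3 with the largest changes per direction, and of marker lists the 2 most abundant and those at 0 counts in a group. Further lineage markers, and Stat5a, Socs1 and Pim1, were chosen after their values were seen. One gene that this rule names is not reported here.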

Additional observations from a re-analysis of the deposited data

How the results depend on the processing

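The numbers of receptor genes past the threshold kept to 2 to 4 higher and 1 to 2 lower when each library was left out in turn, the second lower gene being Csf2rb2 without AE9a-Ddit4+/+ library 1 and Csf2ra without AE9a-Ddit4-/- library 3. Left-out libraries gave log2 fold changes of -0.20 to 0.81 for Csf1r and -0.39 to 0.14 for Ifngr1. Ifngr1 also turned to 0.006 with upper-quartile scaling and to 0.0039 with a minimum of 10 counts in every library. The difference in its ratio to Ifngr2 ran from -0.50 to 0.0523 and was above 0 when AE9a-Ddit4+/+ library 1 was absent. Other cytokine receptors numbered 11 to 20 higher and 0 to 1 lower with a library left out, and JAK-STAT genes 5 to 8 higher. At an adjusted p below 0.01 there were 11 other receptors higher, 5 JAK-STAT genes higher and 1 lower, and 1964 of all genes higher and 712 lower. With 10 counts required in every library, 2341 of all genes were higher, and without single libraries 1089 to 2078 were lower.

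Libraries with the same number did not deviate together (correlations of -0.17, -0.19 and -0.05 for numbers 1, 2 and 3), so the numbers do not pair the samples. A fit with the replicate block called 2 receptor genes higher and 1 lower, losing Il7r (log2 fold change 4.65, adjusted p 0.0996), and called 2 partner chains (Il6st was lost, adjusted p 0.0714), 0 ligands and 5 JAK-STAT genes higher and 2177 of all genes higher and 787 lower. With the longest transcript in place of all exons, Epor (47.6 CPM per kb) stayed first in AE9a-Ddit4+/+ cells, and Csf2rb (43.9), Ifngr1 (39.6) and Csf2rb2 (35.4) followed. Scaling, dividing counts by 4 and DESeq2 changed no call of a receptor gene. Depth sets no limit for the receptors apart from Il7r, whose counts of 3 to 32 in AE9a-Ddit4+/+ libraries lie near the limit of 12.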
